A study of Sus scrofa with 41 samples.

Results

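Expression of the kynurenine aminotransferases KYAT3, KYAT1 and AADAT and of kynurenine 3-monooxygenase (KMO) was described in the psoas major muscle of pigs. The 4 genes were taken by their pig Ensembl symbol from the 25880 genes counted in every pig, and they were picked out of a longer list of kynurenine pathway genes because of how they ran against feed conversion ratio (FCR) in each breed, against breed and against RNA integrity. They were chosen by their measured values for those 3 measures, which are therefore given here as a description without a test. Of the 4 genes, 3 had enough read pairs to enter the models, and AADAT did not.

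Tryptophan is broken down mainly through kynurenine, which IDO or TDO enzymes and a formamidase make from it. From kynurenine the pathway forks. Kynurenine aminotransferases, which need pyridoxal phosphate, turn it into kynurenic acid, while KMO, a flavin enzyme of the outer mitochondrial membrane, hydroxylates it to 3-hydroxykynurenine on the way to quinolinic acid and NAD. In skeletal muscle the aminotransferases are known as targets of PGC-1alpha and the PPARs that rise with endurance training, and the kynurenic acid they make does not readily enter the brain.

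The samples came from 13 Danbred Duroc and 28 Danbred Landrace boars, purebred and uncastrated, whose feed intake and growth were recorded over a test period. FCR was taken as the feed eaten per unit of weight gained, so that a low FCR is an efficient pig. The methods of the study word the ratio the other way round, while its introduction gives it as feed over gain. The wording of the introduction was followed here. FCR ran from 1.83 to 2.18 in the Duroc pigs and from 1.92 to 2.25 in the Landrace pigs. The Duroc pigs were 131 to 156 days old at sampling and the Landrace pigs 147 to 166 days, their RNA integrity numbers (RIN) were 7 to 8.8 and 6.5 to 8.3, and 5 batches held 1, 15, 9, 5 and 11 pigs. No pig was treated, each pig gave 1 library, and breed, age, RIN and batch were not balanced over FCR.

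Each library held 22188911 to 25954816 read pairs on genes (median 25243577), and levels are given as CPM (counts scaled to a common library size) after TMM scaling, which corrects the library sizes for the make-up of the RNA. The muscle label was borne out by 4 markers of skeletal muscle (ACTA1, CKM, DES and TNNT3), which together held 110682 to 204338 CPM, while 4 markers of liver and kidney together held 2.76 to 17.5 CPM, with TTR and UMOD at 0 in most pigs and ALB and APOA1 read at low levels. The libraries of 2 pigs stood apart, those of the Duroc pig with RIN 7 (Duroc pig 10) and of the Landrace pig with RIN 6.6 (Landrace pig 27), where 71.1% and 69.9% of the pairs were counted on genes against 75.5% to 80.9% in the others. Values without these pigs are given in the accounts of FCR, breed, RIN and age.

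KYAT3 lies on chromosome 4 of Sscrofa11.1 (127451475 to 127507766, ENSSSCG00000006925) and KYAT1 on chromosome 1 (269172628 to 269209553, ENSSSCG00000005663), 106 bases from its neighbour LRRC8A, which codes for a volume-regulated anion channel. AADAT lies on chromosome 14 (19768816 to 19792254, ENSSSCG00000009708) and KMO on chromosome 10 (12442877 to 12489417, ENSSSCG00000025686), where the span of a non-coding gene overlaps it. These are the outer limits of the genes in RefSeq. The pairs counted on either strand added up to exactly the unstranded count for each of the 4 genes, so no pair on them was set aside because of a gene on the other strand.

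KYAT3, which codes for a mitochondrial aminotransferase that also acts on cysteine conjugates, was read from 1240 to 1982 pairs per pig. Its level had a lowest value of 50.8, a median of 61.2 and a highest value of 90.6 CPM in the Duroc pigs, and 56.1, 66.5 and 88.2 CPM in the Landrace pigs. The ranges of the breeds overlapped almost completely, and the highest pig of each breed was the one whose library stood apart. KYAT3 was the steadiest of the 3 genes: its coefficient of variation over the 41 pigs was 12.8%, against a median of 24.3% over 11146 genes, and 7.29% of those genes varied less.

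KYAT1, the mainly cytosolic enzyme that handles glutamine as well as kynurenine, was read from 180 to 493 pairs per pig. Its level was 7.70, 11.96 and 20.9 CPM in the Duroc pigs (lowest, median and highest) and 6.33, 11.75 and 16.8 CPM in the Landrace pigs. The medians of the breeds were close and 1 Duroc pig lay above all others. The coefficient of variation was 23.2%, near the middle of all genes.

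KMO was read from 33 to 129 pairs per pig, the fewest of the 3 genes. Its level was 1.64, 3.89 and 6.71 CPM in the Duroc pigs (lowest, median and highest) and 1.16, 3.03 and 4.33 CPM in the Landrace pigs. The highest pig again was the Duroc pig with RIN 7, and 4 further Duroc pigs lay above every Landrace pig. KMO was the most variable of the 3, with a coefficient of variation of 31.5% and a 5.77-fold distance between the highest and the lowest pig, against 3.30-fold for KYAT1 and 1.78-fold for KYAT3. In whole muscle, fewer cells of a type that holds a transcript and less of that transcript per cell cannot be told apart.

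AADAT, which codes for the mitochondrial aminotransferase of both kynurenine and 2-aminoadipate, was close to absent from these libraries. It was counted 5 times in all, once in each of 5 Landrace pigs, and 36 of the 41 pigs had a count of 0. Summed over the pigs this is 0.00486 CPM (exact 95% binomial interval 0.00158 to 0.0113, counting error only), and a count of 0 in a single library allows up to 0.116 to 0.135 CPM. AADAT was below the filter on low counts and was left out of the comparisons described here. A fit without the filter gives coefficients for it, which rest on these 5 counts and are not read here. Exon lengths were not used here, so the CPM values rank pigs within a gene and do not rank the 4 genes among themselves.

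**Figure D1:**
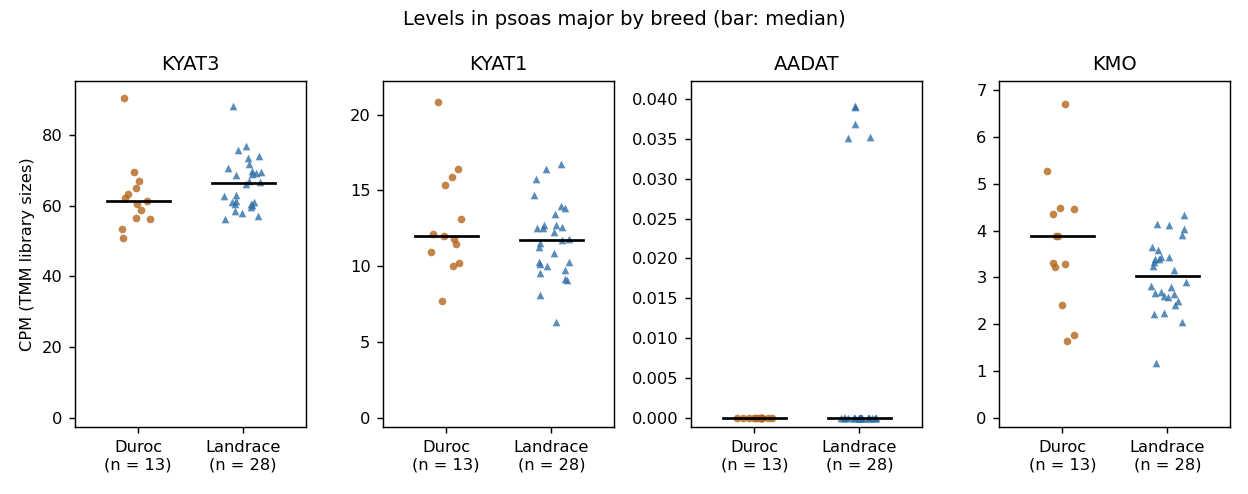
Level of each gene in CPM with TMM library sizes (vertical axis, a separate scale from 0 for each gene) in the 13 Duroc and 28 Landrace pigs, with 1 point per pig and a bar at the breed median. The breeds overlap for KYAT3 and KYAT1, several Duroc pigs lie above all Landrace pigs for KMO, and AADAT is at 0 in all but 5 Landrace pigs.

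The question of the study was which muscle genes move with FCR. Within each breed the pigs at or below the lower quartile of FCR were set beside those at or above the upper quartile. For KYAT3 the 4 Duroc pigs with low FCR had 63.2 to 90.6 CPM (median 68.2) and the 4 with high FCR had 50.8 to 58.7 CPM (median 56.4), without overlap. With total counts alone as the scaling the same 2 groups had 59.3 to 68.6 and 57.3 to 65.2 CPM, which overlap. In the Landrace pigs the 7 with low FCR had 57.9 to 73.4 CPM (median 70.0) and the 7 with high FCR had 58.5 to 68.6 CPM (median 61.2), and these ranges overlapped. The highest KYAT3 level among the Landrace pigs was in neither of these groups.

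For KMO the 4 low-FCR Duroc pigs had 4.45 to 6.71 CPM (median 4.88) and the 4 high-FCR pigs 2.41 to 4.36 CPM (median 3.60), narrowly without overlap, and the lowest levels of the breed were in the pigs between these groups. Scaled by total counts alone, these 2 groups had 4.18 to 5.14 and 2.59 to 4.74 CPM, which overlap. In the Landrace pigs KMO was 2.60 to 4.14 CPM (median 3.33) in the 7 low-FCR pigs and 1.16 to 3.90 CPM (median 2.59) in the 7 high-FCR pigs, with overlap. KYAT1 overlapped in both breeds, with medians of 11.96 and 12.5 CPM in the low- and high-FCR Duroc pigs and 12.3 and 10.3 CPM in the corresponding Landrace pigs. With total counts alone the low-FCR Duroc pigs had 9.40 to 12.1 CPM of KYAT1 and the high-FCR Duroc pigs 12.9 to 19.1 CPM. Which groups separated in the Duroc pigs thus hung on the scaling for all 3 genes.

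In the model with FCR, RIN, age, breed and batch, fitted on all genes with the quasi-likelihood method of edgeR, a coefficient is the log2 difference in level per 0.1 of FCR. It was -0.094 (SE 0.024) for KYAT3, -0.19 (SE 0.075) for KMO and -0.015 (SE 0.057) for KYAT1. The median coefficient over all genes was 0.0027. KYAT3 stood at place 7 of 11146 genes when ordered by p and KMO at place 317, while KYAT1 stood at place 9340, and 1.06% of genes had a lower coefficient than KMO.

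These places are those of the contrast by which the genes were chosen, and nothing is read from them. Over all genes, 0% were under a false discovery rate (FDR) of 0.1 for FCR in edgeR and in limma, and 5 of 10765 were in DESeq2 (0.0464%). At an unadjusted p under 0.05, edgeR called 8.68% of all genes (968 genes).

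Fitted on each breed alone, the coefficients for KYAT3 were -0.10 (SE 0.051) in the Duroc pigs and -0.059 (SE 0.033) in the Landrace pigs. For KMO they were -0.086 (SE 0.14) and -0.15 (SE 0.094), and for KYAT1 0.032 (SE 0.064) and -0.042 (SE 0.069). KYAT3 and KMO thus had the same sign in both breeds and KYAT1 did not. The KMO value in Duroc and both KYAT1 values were smaller in size than their SE, and none of these values is read as a test. The joint KMO coefficient of -0.19 was larger in size than either breed-alone value. In these edgeR fits no gene was called at an FDR of 0.1 in either breed (0% of genes). The study fitted each breed with another method and did list genes under this threshold. At an unadjusted edgeR p under 0.05 the shares of all genes were 5.37% in Duroc and 5.5% in Landrace. A separate model on all pigs held a term for FCR by breed, with RIN, age and batch terms shared by the breeds. Its difference of the FCR coefficients (Landrace minus Duroc) was 0.057 (SE 0.048) for KYAT3, -0.014 (SE 0.12) for KYAT1 and 0.010 (SE 0.15) for KMO. These values need not equal the gaps between the breed-alone coefficients, and for KMO the sign is the other way.

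Duroc pig 10, which combined the second lowest FCR of all pigs with the highest KYAT3 and KMO levels, carried part of these values. Without it the coefficient was -0.075 for KYAT3 and -0.15 for KMO, the values nearest to 0 among the 41 fits that left out 1 pig each. The KYAT3 coefficient ran from -0.11 to -0.075 and that of KMO from -0.23 to -0.15 over these fits. Without both pigs whose libraries stood apart, the coefficients were -0.075 (SE 0.023) for KYAT3, -0.15 (SE 0.081) for KMO and -0.037 (SE 0.061) for KYAT1.

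Within the 3 batches of 9 or more pigs, with FCR, RIN and breed in the fit, the slope of log2 CPM per 0.1 of FCR for KYAT3 was -0.044 (SE 0.027) in batch 2, -0.089 (SE 0.056) in batch 3 and -0.14 (SE 0.044) in batch 5. For KMO it was -0.10 (SE 0.11), -0.41 (SE 0.34) and -0.16 (SE 0.082). The sign was negative in each of these batches for both genes, with errors that were large for KMO. For KYAT1 the slope was -0.048 (SE 0.094), 0.13 (SE 0.12) and -0.028 (SE 0.063). Batches 1 and 4 held too few pigs for such a fit.

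The scaling mattered for KYAT3. When levels were divided by the total counts alone, the KYAT3 coefficient was -0.034 (SE 0.025), that of KMO was -0.13 (SE 0.075) and that of KYAT1 was 0.044 (SE 0.059), which is a change of sign. The same scaling moved the median coefficient of all genes to 0.061. Relative to that median the values were -0.095, -0.19 and -0.017, against -0.097, -0.19 and -0.018 with TMM.

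**Figure D2:**
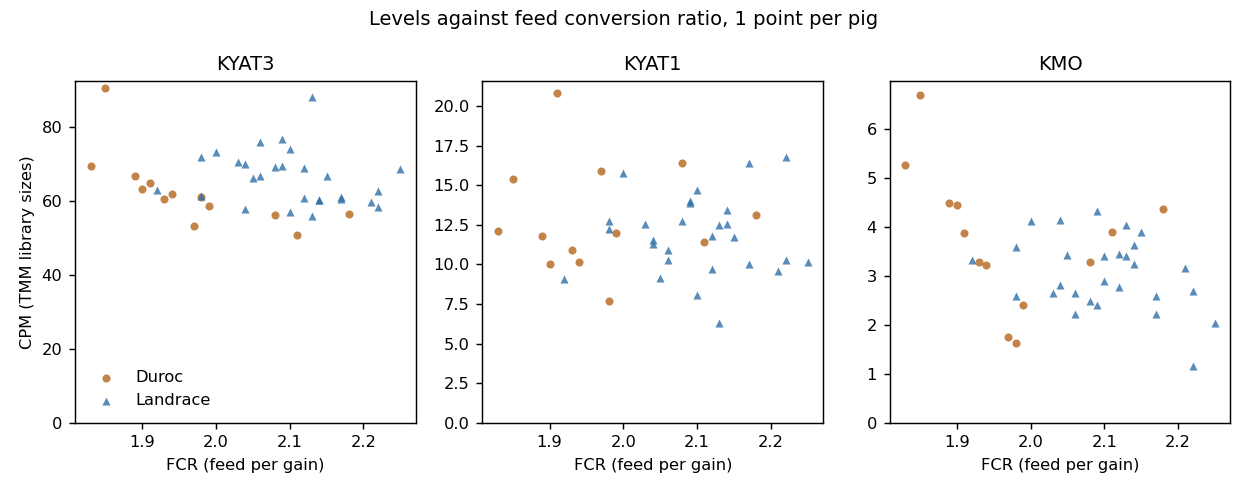
Level in CPM with TMM library sizes (vertical axis, from 0) against FCR as feed per gain (horizontal axis), with 1 point per pig and the breeds marked by colour and shape. The Duroc pigs with the lowest FCR hold the highest KMO levels, up to 6.71 CPM. The joint coefficient of KYAT1 was -0.015 (SE 0.057) per 0.1 of FCR, given without a test.

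Breed was also among the measures that chose the genes. With FCR, RIN, age and batch in the model, the log2 difference of Landrace minus Duroc pigs was 0.21 (SE 0.064) for KYAT3, -0.27 (SE 0.14) for KYAT1 and -0.13 (SE 0.20) for KMO. Without the 2 pigs whose libraries stood apart the values were 0.24 (SE 0.058), -0.31 (SE 0.15) and -0.059 (SE 0.21). With total counts alone the values were 0.032 (SE 0.067), -0.45 (SE 0.15) and -0.30 (SE 0.20), and the median over all genes was -0.18 in place of -0.0024. Within batches 2, 3 and 5 the breed difference was 0.11, 0.29 and 0.22 for KYAT3. For KYAT1 it was -0.77 (SE 0.22) in batch 2 and -0.044 and -0.017 in the other two, and for KMO it was 0.37, 0.24 and -0.59, with no common sign. Each batch held 2 to 4 Duroc pigs, so that a few pigs set these values.

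RIN was the third measure that chose the genes. The 26 pigs with a RIN of 8 or higher had a median KYAT3 level of 61.3 CPM, the 13 with a RIN of 7 to 7.9 had 66.9 CPM, and the 2 pigs with a RIN below 7 had 76.9 and 88.2 CPM. The KYAT1 medians in the first 2 of these groups were 11.09 and 14.01 CPM, and the 2 pigs below 7 had 12.5 and 13.9 CPM. For KMO the medians were 3.27 and 3.64 CPM, and the 2 pigs had 2.41 and 3.40 CPM. The KYAT3 and KYAT1 medians were thus lowest in the group of most intact RNA, and KMO showed no clear order. Within batches 2, 3 and 5 the slope of log2 CPM per unit of RIN was -0.21 (SE 0.050), 0.17 (SE 0.18) and -0.23 (SE 0.090) for KYAT3, with the opposite sign in batch 3. It was -0.36 (SE 0.18), -0.27 (SE 0.40) and -0.27 (SE 0.13) for KYAT1 and 0.21 (SE 0.20), -0.54 (SE 1.08) and -0.23 (SE 0.17) for KMO.

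The fitted log2 difference per unit of RIN was -0.20 (SE 0.048) for KYAT3, -0.37 (SE 0.12) for KYAT1 and -0.073 (SE 0.16) for KMO. With total counts alone these values became 0.11 (SE 0.051), -0.073 (SE 0.12) and 0.26 (SE 0.17), so that KYAT3 and KMO changed sign, while the median of all genes went from -0.010 to 0.30. Relative to the median of all genes the KYAT3 value was -0.19 under either scaling, the KYAT1 value -0.36 and -0.37, and the KMO value -0.063 and -0.042. Without the 2 pigs whose libraries stood apart, the coefficients were -0.12 (SE 0.049) for KYAT3, -0.48 (SE 0.13) for KYAT1 and 0.024 (SE 0.20) for KMO. Without the 2 pigs with a RIN below 7 they were -0.16 (SE 0.065), -0.58 (SE 0.15) and -0.28 (SE 0.22).

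**Figure D3:**
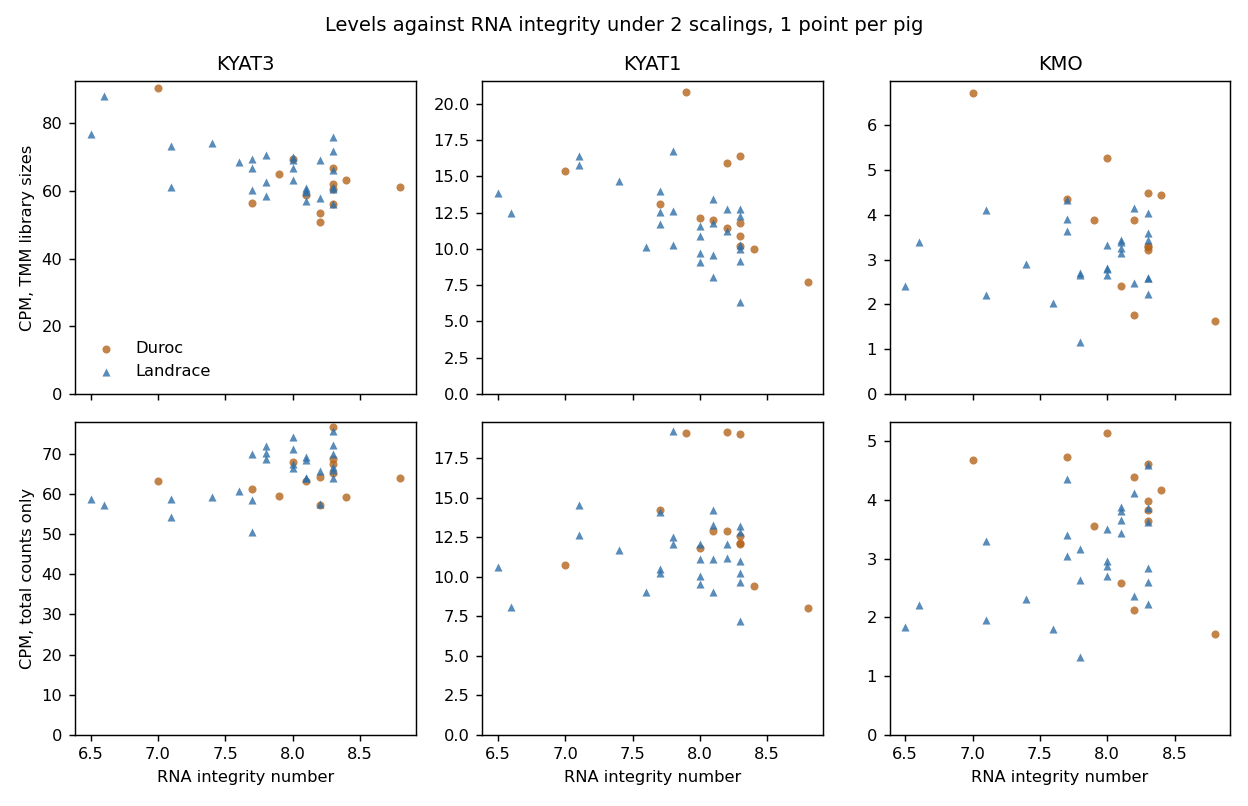
Level in CPM (vertical axes, from 0) against RIN (horizontal axis) in 41 pigs, with TMM library sizes in the upper row and total counts alone in the lower row. KYAT3 runs down with RIN in the upper row and up in the lower row, with coefficients of -0.20 and 0.11 per unit of RIN.

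Age and batch played no part in the choice of the genes and were tested. Per 10 days of age the log2 difference was -0.022 (SE 0.052, edgeR FDR 0.873) for KYAT3, -0.0064 (SE 0.12, FDR 0.987) for KYAT1 and 0.11 (SE 0.16, FDR 0.774) for KMO. None of the 3 passed, and 1.76% of all genes did. Without the 2 pigs whose libraries stood apart the values were -0.054 (SE 0.047), 0.023 (SE 0.12) and 0.056 (SE 0.17), with an FDR of 0.571, 0.942 and 0.890. Over the 5 batches none of the 3 passed either, with an edgeR FDR of 0.301 for KYAT3, 0.562 for KYAT1 and 0.197 for KMO, while 24.1% of all genes did. The median KMO level was 3.33 CPM in batch 2, 2.65 CPM in batch 3 and 3.90 CPM in batch 5, and the corresponding KYAT3 medians were 60.4, 62.8 and 69.3 CPM.

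Around the fork, the genes that make kynurenine were hardly read in this muscle. All 4 listed genes of that step were below the filter on low counts: TDO2 was counted 5 times, IDO1 28 times and IDO2 once over the 41 pigs, and the formamidase AFMID 544 times. Downstream of KMO, kynureninase (KYNU) was counted 225 times, HAAO 294 times, ACMSD 89 times and QPRT 6 times in all pigs, also below the filter. KMO itself was counted 3363 times. Of the aryl hydrocarbon receptor genes, which respond to kynurenine and kynurenic acid, AHR (1.02 to 4.40 CPM) and its partner ARNT (7.03 to 23.5 CPM) passed the filter. GOT2, the mitochondrial aspartate aminotransferase that can also act on kynurenine, was at 296 to 571 CPM.

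Of 42 other listed pathway genes, 40 were matched by symbol (not NAPRT and GPT) and 26 passed the filter. None of the 26 was under an FDR of 0.1 for FCR in edgeR, and 1 of them (against 8.68% of all genes) had an unadjusted p under 0.05. This was PPARA, a fatty acid sensing nuclear receptor and a known activator of the aminotransferases, with a coefficient of 0.25 per 0.1 of FCR. DESeq2 and limma also called none of these genes for FCR.

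For breed, 11 of the 26 genes passed the FDR threshold, 4 higher and 7 lower in the Landrace pigs (42.3%, against 33.1% of all genes, with 15.6% of all genes higher and 17.5% lower). Among the genes of NAD synthesis NMNAT1 was higher by 0.88 on the log2 scale (SE 0.20) and NAMPT of the salvage route by 0.48 (SE 0.17). Among the tryptophan and kynurenine carriers SLC7A5 (0.59) and SLC16A10 (0.38) were higher while SLC3A2, the partner chain of SLC7A5, had a value of -0.69. PPARGC1A, which codes for PGC-1alpha, had a value of -0.71 and PPARA of -0.66, GOT1 and GLUD1 of glutamate metabolism -0.72 and -0.28, AHR -0.47, and PDXP, which removes the phosphate from pyridoxal phosphate, -1.30 (SE 0.21). Of the marker lists, fast-fibre (3 of 3) and skeletal muscle markers (3 of 4) were higher in the Landrace pigs, and endothelial (3 of 3), adipocyte (1 of 2), liver and kidney (1 of 1), macrophage (1 of 7), slow-fibre and fibroblast markers (1 of 5 each) were lower. TNNT3 is in both the fast-fibre and the skeletal muscle list, and MYH1, MYH2 and MYH4 of the fast-fibre list had no match by symbol.

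For RIN, 15 of the 26 genes passed, 7 higher and 8 lower with higher RIN (57.7%, against 51.8% of all genes). Negative values were those of GOT2 (-0.21, SE 0.073), PPARGC1A (-0.83), NMRK2 (-0.68), SLC3A2 (-0.61), PDXP (-0.59), PDXK (-0.45), BCAT2 (-0.37) and GOT1 (-0.27). Positive values were those of PPARA (0.83), AHR and ARNT (both 0.52), NAMPT (0.37), SLC16A10 (0.36), NMNAT2 (0.33) and GLUD1 (0.20). All 5 slow-fibre markers that could be tested, all 3 fast-fibre markers and 2 of 4 skeletal muscle markers had lower levels with higher RIN, beside 27.9% of all genes. TNNT3 is in both of the last 2 lists. Of the other lists, 2 of 7 leukocyte markers were lower and 2 of 5 fibroblast markers were higher. After RIN was taken out together with age, breed and batch, the slow-fibre score had r = 0.21 and rho = 0.35 with KYAT3 and r = 0.24 and rho = 0.19 with KYAT1, none of which passed (adjusted permutation p of r 0.285 and 0.230). None of the 26 passed for age in edgeR or limma, 1 did in DESeq2 (against 5.06% of all genes), and 3 had an unadjusted edgeR p under 0.05 (against 16% of all genes). For batch 8 of the 26 passed (30.8%, against 24.1% of all genes), among them NAMPT, NMRK2, PPARD, PPARGC1A, AHR, GOT1 and SLC7A8.

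**Figure D4:**
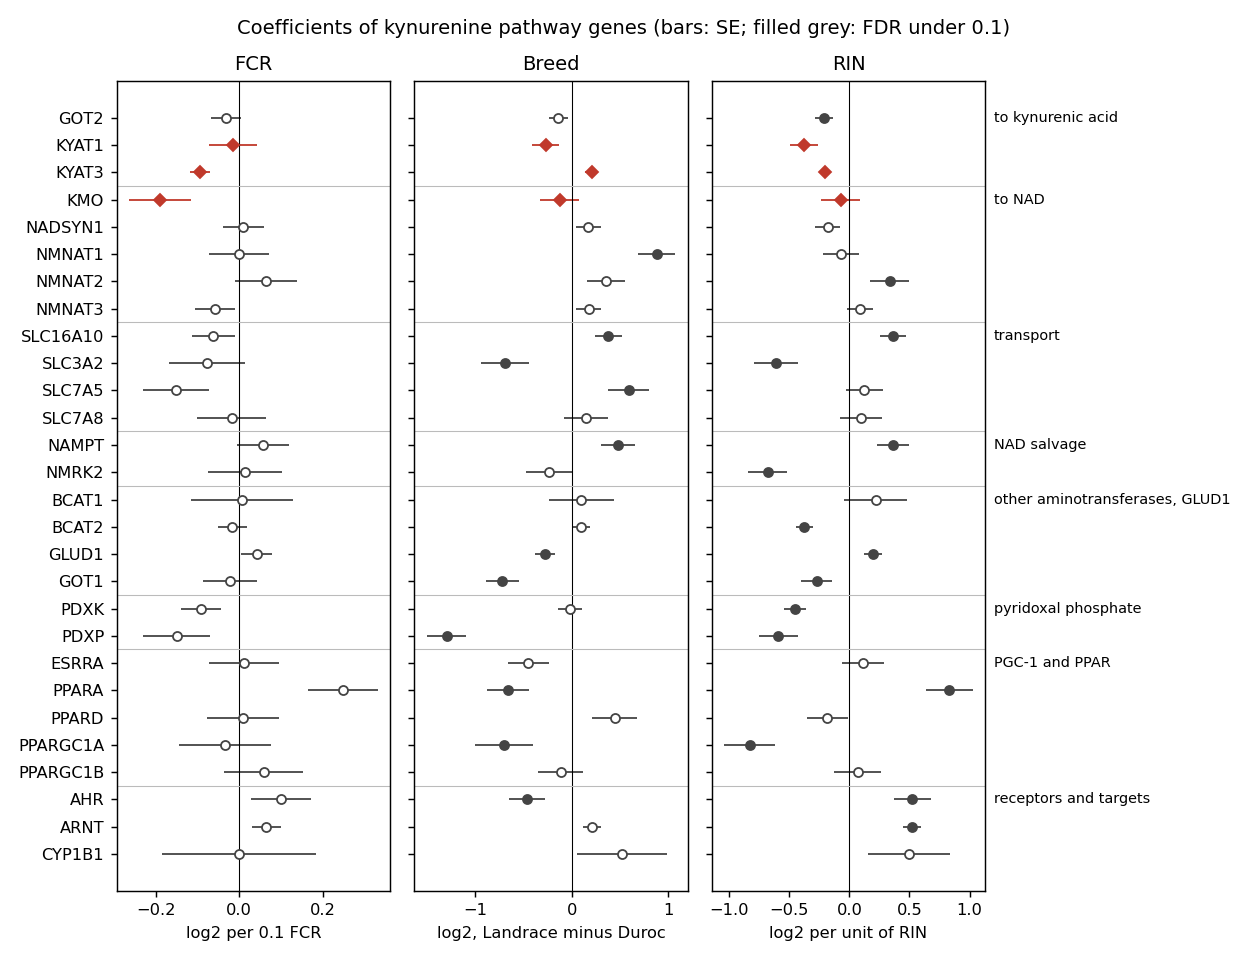
Coefficients of the joint edgeR model for the 3 genes (red) and 25 of the other pathway genes (grey), by pathway group, on the log2 scale (horizontal axes) per 0.1 of FCR, for Landrace minus Duroc and per unit of RIN; bars are SE, filled grey points have an FDR under 0.1, and the red diamonds carry no call. No grey point is filled for FCR, while 11 of the grey points are for breed and 15 for RIN.

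Whether the 3 genes moved together from pig to pig was tested on log2(CPM + 1) values with RIN, age, breed and batch taken out, which leaves the single pig of batch 1 at 0. KYAT3 and KYAT1 showed no relation (Pearson r = 0.012, Spearman rho = 0.071, permutation p = 0.938 and 0.659). KYAT3 and KMO had r = 0.26 and rho = 0.11 (permutation p = 0.105 and 0.483), and KYAT1 and KMO had r = -0.18 and rho = -0.046 (permutation p = 0.253 and 0.776). In a family of 30 relations, which also held 4 regulators and the scores of 5 marker lists, the adjusted p of r for these 3 pairs was 0.966, 0.224 and 0.345. Leaving out the 2 pigs whose libraries stood apart gave r of 0.18, 0.080 and -0.15. The log2 ratio of the counts of KYAT3 to KMO, a pair that draws on the same substrate, ran from 3.70 to 5.75 over the pigs.

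Of the 30 relations, 2 had an adjusted permutation p of r under 0.1, and neither did without the 2 pigs whose libraries stood apart. The permutations treated the residuals as free values and made no allowance for the terms fitted out, which makes p too low. Whether these 2 relations would pass with that allowance was not tested. The first was that of KYAT1 with ESRRA, the estrogen-related receptor that works with PGC-1alpha (r = 0.47, rho = 0.44, permutation p = 0.0018 and 0.0043, adjusted p = 0.0537 and 0.0535). Without the 2 pigs farthest from the ESRRA median r was 0.38, within batches 2, 3 and 5 it was 0.26, 0.83 and 0.64, and within the Duroc and Landrace pigs 0.72 and 0.36. The 2 lowest ESRRA residuals were those of Landrace pig 27 and Duroc pig 10, whose libraries stood apart, and without these pigs r was 0.43 (permutation p = 0.00648, adjusted p = 0.159 over the 30 relations). The pairs counted for ESRRA on both strands added up to 6.35 times its unstranded count, so that most pairs there overlap a gene on the other strand and were set aside, and their gene of origin cannot be told apart. Of all 11145 other genes, 0.942% had an r with KYAT1 at least as high.

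The second was that of KYAT1 with the score of 7 macrophage markers (r = -0.43, rho = -0.43, permutation p = 0.0044 and 0.0048, adjusted p = 0.066 and 0.0535). Without the 2 farthest pigs r was -0.39, within batches 2, 3 and 5 it was -0.49, -0.25 and -0.69, and within the Duroc and Landrace pigs -0.32 and -0.51. Leaving out the same 2 pigs, Landrace pig 27 and Duroc pig 10, gave r = -0.37 (permutation p = 0.0196, adjusted p = 0.159). All 7 markers were read in the muscle, with a summed level of 16.9 to 154 CPM, and none was at 0 in most pigs. For the macrophage marker CSF1R and the leukocyte marker CORO1A the pairs on both strands were 2.54 and 7.68 times the unstranded count, the same limit as for ESRRA. The leukocyte score gave r = -0.39 with KYAT1 and r = 0.32 with KMO, with adjusted p of 0.113 and 0.205, both above the threshold. KYAT1 with ESRRA had an r of 0.24 and KYAT1 with the macrophage score one of -0.33 when nothing was taken out, and neither passed then (adjusted permutation p = 0.290 and 0.157). In that setting 3 other relations passed, namely KYAT1 with the slow-fibre score (r = 0.48, adjusted permutation p = 0.0286), KYAT3 with PPARA (r = -0.64, adjusted permutation p = 0.0009) and KYAT3 with ESRRA (r = -0.41, adjusted permutation p = 0.0871).

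**Figure D5:**
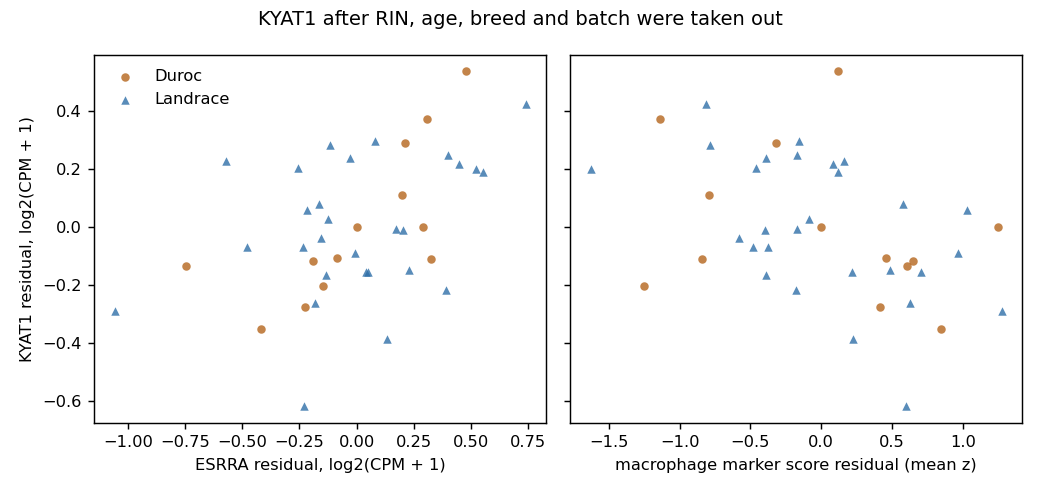
KYAT1 residuals of log2(CPM + 1) (vertical axis) against those of ESRRA (left) and of the mean z-score of 7 macrophage markers (right) in 41 pigs, after RIN, age, breed and batch were taken out, with the breeds marked by colour and shape. Points run upward on the left (r = 0.47) and downward on the right (r = -0.43) with wide scatter, and r was 0.43 and -0.37 without the 2 pigs whose libraries stood apart.

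KYAT3 showed no such relation with PPARGC1A (r = 0.18, rho = 0.041, adjusted permutation p = 0.345 and 0.828). Its relation with PPARA was r = -0.35 and rho = -0.43, and only the rank value passed (adjusted permutation p = 0.174 and 0.0535). These p are too low in the same way, as the terms fitted out were not allowed for. Within batches 2, 3 and 5 the r of KYAT3 with PPARA was -0.38, -0.037 and -0.65. Scaled by total counts alone it was 0.16, a change of sign (adjusted permutation p = 0.490), and FCR was not taken out of any of these relations. None of the 9 relations of KMO with the regulators and marker scores passed.

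The genes whose residuals ran most like each of the 3 were listed over the 41 pigs, as a description, since all points share the same libraries. For KYAT3 they were TM2D3 (r = 0.74), the RNA polymerase II subunit POLR2D (0.74), ENSSSCG00000034625 (0.72), the mitochondrial ribosomal protein MRPS25 (0.70) and the kinase CDK7 (0.69), and the lowest r was with GLYR1 (-0.76). With total counts alone the r was 0.44 with ENSSSCG00000034625, 0.25 with MRPS25 and -0.17 with GLYR1, so that these 3 hung on the scaling. For KYAT3, 4.59% of all genes had an r above 0.5 in size.

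For KYAT1 the genes were the fatty acid transporter SLC27A1 (r = 0.73), the costimulatory ligand CD80 (0.64), the nucleotide receptor P2RY2 (0.62), CHCHD3 of the mitochondrial inner membrane (0.62) and FPGS, which adds glutamates to folate (0.60). The lowest was ENSSSCG00000012427 (-0.71). FPGS lies on the same chromosome as KYAT1, 0.863 Mb away, and the r values with total counts alone were 0.65 to 0.76 for these 5 genes.

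For KMO they were the deubiquitinase USP9X (r = 0.75), ENSSSCG00000007088 (0.72), PDXP (0.72), the ubiquitin ligase subunit BTRC (0.69) and VKORC1L1 of the vitamin K cycle (0.67), and the lowest was LMOD2, a thin filament protein of muscle (-0.69). PDXP is also a member of the pathway list, read at 0.53 to 4.62 CPM. The 5 r values with total counts alone were 0.56 to 0.67. Of all genes, 1.07% had an r above 0.5 in size with KYAT1 and 1.25% with KMO.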

How the data were processed

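RNA of psoas major from 41 boars was sequenced as unstranded read pairs. The authors trimmed the reads with Trimmomatic 0.39, aligned them with STAR 2.7.1a to Sscrofa11.1 with Ensembl annotation release 96, and deposited the whole-number counts of pairs per gene that STAR gave, without normalization or filter. Pairs on no single gene (19.1% to 30.1% per pig) stayed out of library sizes. The deposited unstranded count column was used, and both strand columns only for checks of overlap, and 0 columns of other samples were present.

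The 4 genes, the pathway lists and the marker lists were chosen with earlier results of these data known. Genes were filtered with filterByExpr (11146 kept), scaled by TMM and fitted with edgeR 4.0.16 (glmQLFit and glmQLFTest, legacy form) in R 4.3.3, in a joint model that held FCR, RIN, breed, age in days and the 5 batches as a factor. Benjamini-Hochberg values over all genes had a threshold of 0.1. SE was derived from the coefficient and its F value. The alternatives were DESeq2 1.42.0 on 10765 genes with at least 5 counts in every pig, limma 3.58.1 with voom, DESeq2 size factors, total counts alone, no filter, batch as a number, age left out, no pigs with RIN below 7, and each pig left out; fits and correlations without the 2 pigs with under 72% of pairs counted were chosen after seeing the data. Correlations used residuals of log2(CPM + 1), 100000 two-sided permutations and adjustment over 30 relations, with a pseudocount of 0.1 and no adjustment as alternatives, in Python 3.11.15 with NumPy 2.4.6. The permutations shuffled the residuals without allowing for the terms fitted out. The fits were tested on simulated data.

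Besides the 4 genes, pathway genes were named where they passed the threshold for FCR, age or batch, up to 3 per list by smallest p for breed and RIN, and where not measured, together with the 5 genes of highest r and the 1 of lowest r with each gene. 1 pathway gene enters the counts and is not reported here by name. PPARA for FCR and the low genes of the pathway were named after their values were seen. Gene symbols came from a name table that matched 14857 of 25880 gene IDs, and positions from RefSeq on Sscrofa11.1. Each pig is a separate animal. Depth was 22188911 to 25954816 counts, and intervals cover counting error only.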

Additional observations from a re-analysis of the deposited data

Results flagged for a closer look

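In batch 3, which held 9 pigs, the KYAT1 level of Landrace pig 8 was 16.8 CPM and the nearest other pig of the batch had 12.7 CPM. The gap is 0.611 of the range of the batch, above the 95% value of Dixon's test for 9 samples. It was the 1 such value among 18 groups tested, and chance gives about 1 in 20 groups. The same pig had the lowest KMO level of all 41 pigs, 1.16 CPM.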

How the results depend on the processing

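No other pathway gene passed for FCR in any alternative, nor in the 41 fits that left out 1 pig each (0 to 0 genes). Over those fits the FCR coefficient of KYAT3 ran from -0.11 to -0.075, of KMO from -0.23 to -0.15 and of KYAT1 from -0.045 to -0.0018. The count of pathway genes passing for age, 0 of 26, was 1 with DESeq2, 1 without the filter and 4 with batch as a number, and that for batch, 8, was 5 with limma. Of the 30 relations, 0 in place of 2 passed without the 2 pigs with under 72% of pairs counted, and 1 passed with total counts alone. That was KYAT1 with ESRRA, which rose to r = 0.56 (adjusted permutation p = 0.0036), while KYAT1 with the macrophage score had r = -0.31. Total counts alone turned the sign of the KYAT1 coefficient for FCR (0.044 in all pigs, 0.0055 in Landrace), of the RIN coefficients of KYAT3 (0.11) and KMO (0.26), and of the age coefficients of KYAT3 (0.041) and KYAT1 (0.068); the median of all genes moved with them. The KMO coefficient for RIN was 0.024 without the 2 pigs with under 72% of pairs counted. The KYAT1 coefficient for age, near 0, was 0.0046 with limma, 0.055 with batch as a number and 0.023 without those 2 pigs. The relations of KYAT1 with ESRRA and with the macrophage score did not pass when nothing was taken out. The cause of these changes was not tested.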
